A study of Mus musculus with 12 samples.

Results

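The genes of the cytosolic ribosomal proteins were taken as the RefSeq protein-coding genes of mouse build mm10 whose symbol starts with Rpl or Rps followed by a digit, together with Rpsa, Rplp0, Rplp1 and Rplp2. Symbols starting with Rps6k, which name kinases, and those containing -ps were left out. The rule found 89 of 21887 protein-coding genes, on 19 chromosomes. Of these, 77 are the canonical genes, 46 of the large and 31 of the small ribosomal subunit, and 12 are noncanonical: paralogs, retrogene copies and the binding protein gene Rps19bp1.

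The assay was ATAC-seq, which marks open chromatin by where a transposase can insert adapters. The cells were RAW264.7, a macrophage line from mouse. All 12 libraries came from stable lines given 1 µg/ml doxycycline for 18 h to switch on a transgene, either Nur77 (the nuclear receptor whose gene is Nr4a1) or, as the control, green fluorescent protein (GFP). The 4 groups were the untreated GFP line, the GFP line given LPS (lipopolysaccharide, an endotoxin of bacteria) at 500 ng/ml for 1 h, the untreated Nur77 line, and the Nur77 line with the same LPS treatment, with 3 libraries each. The labels name 1 line for each construct, so line and construct cannot be told apart. The labels do not say whether replicates were separate cultures, so p-values refer only to the spread among these libraries, and that spread may be technical.

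The ribosome joins a small subunit, which reads the messenger RNA, to a large subunit, which forms the peptide bond. Each canonical protein is needed in a fixed proportion to the others, and its gene is transcribed strongly in nearly all growing cells from a compact promoter without a strict need for a TATA box. The transcripts start with a C followed by a run of pyrimidines, the 5′ terminal oligopyrimidine tract, through which the kinase mTOR controls their translation.

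Each library was given as 1 list of peaks, of 36184 to 81467 peaks. Read totals were not used here. Peaks were merged over the lists, and the 76042 regions present in at least 2 lists were used. The shared rank of a region is its percentile by the authors' −log10 q among the 26378 regions called in all 12 libraries, with 100 as the strongest. It says how prominent a region is among the others of the same library, not how open it is, and in a cell population fewer cells with an open site and less opening per cell cannot be told apart. As a check of the labels, 1 region inside Nr4a1 appeared in all 6 lists of the Nur77 line and in 0 of the 6 of the GFP line. All 8 macrophage markers examined (among them Csf1r, Spi1 and Lyz2) had a region called in all 12 libraries. Of the other markers, 2 of 4 T cell, 2 of 4 B cell, 2 of 4 fibroblast and 0 of 4 epithelial ones did. The share over all protein-coding genes was 58.2%, so the T cell, B cell and fibroblast counts are near that share.

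All 77 canonical genes had a region within 1 kb of the gene called in all 12 libraries, and 6 of the 12 noncanonical genes did. This share, 93.3% of the 89 genes, stands beside 58.2% of all protein-coding genes. In all, 141 regions lay within 1 kb of the 89 genes, and 108 of them were called in all 12 libraries. Each library called 115 to 132 of the 141 regions and 84 or 85 of the 89 genes. Near the distance limit, the last regions inside lay 837 bp from Rplp2, 903 bp from Rpl3l and 959 bp from Rps14, and the first outside lay 1013 bp from Rpl35, 1075 bp from Rps25 and 1092 bp from Rps13. The Rpl35 and Rps13 regions just outside were called in all 12 libraries.

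For each gene 1 lead region was described: the one that holds the RefSeq start, or, for genes whose start was not in the promoter table, the region called in most libraries and then the highest ranked. Of the 57 canonical genes with a tabulated start, 56 had the start inside a region called in all 12 libraries (98.2%, against 47.9% of 17492 protein-coding starts and 98.6% of 69 starts of mitochondrial ribosomal protein genes). The exception was Rpl22, whose lead region lay inside the gene and did not hold the start. In the 56, the strongest summit lay a median of 39.3 bp upstream of the start (lower quartile 119 bp upstream, upper quartile 1.88 bp downstream), and in 42 of them within 150 bp of it. Over all 8378 such gene starts the median was 38.5 bp upstream. A start of a gene on the opposite strand lay in the same region for 9 of the 56 (16.1%), against 38.2% of the mitochondrial ribosomal protein genes and 19.8% of all genes.

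The lead regions of the canonical genes had a median shared rank of 81.0 (quartiles 68.4 and 90.4). For the 56 that hold the start the median was 80.9 (quartiles 68.4 and 88.2). For all 8378 protein-coding starts in a region called in all 12 libraries it was 74.5 (quartiles 53.6 and 88.9), so the upper quartiles were close. The large subunit genes had a median of 84.2 and the small subunit genes 80.5. Of the 77 genes, 20 stood at 90 or more, 29 between 75 and 90, 23 between 50 and 75, and 5 below 50. Counting all 108 shared regions near the 89 genes, the median was 78.8, beside 48.6 for all shared regions and 68.6 for shared regions within 1 kb of a gene end. In single libraries the median of the lead regions lay between 78.0 and 85.4, and the lowest came from untreated Nur77 replicate 2, which also had the shortest list.

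**Figure D1:**
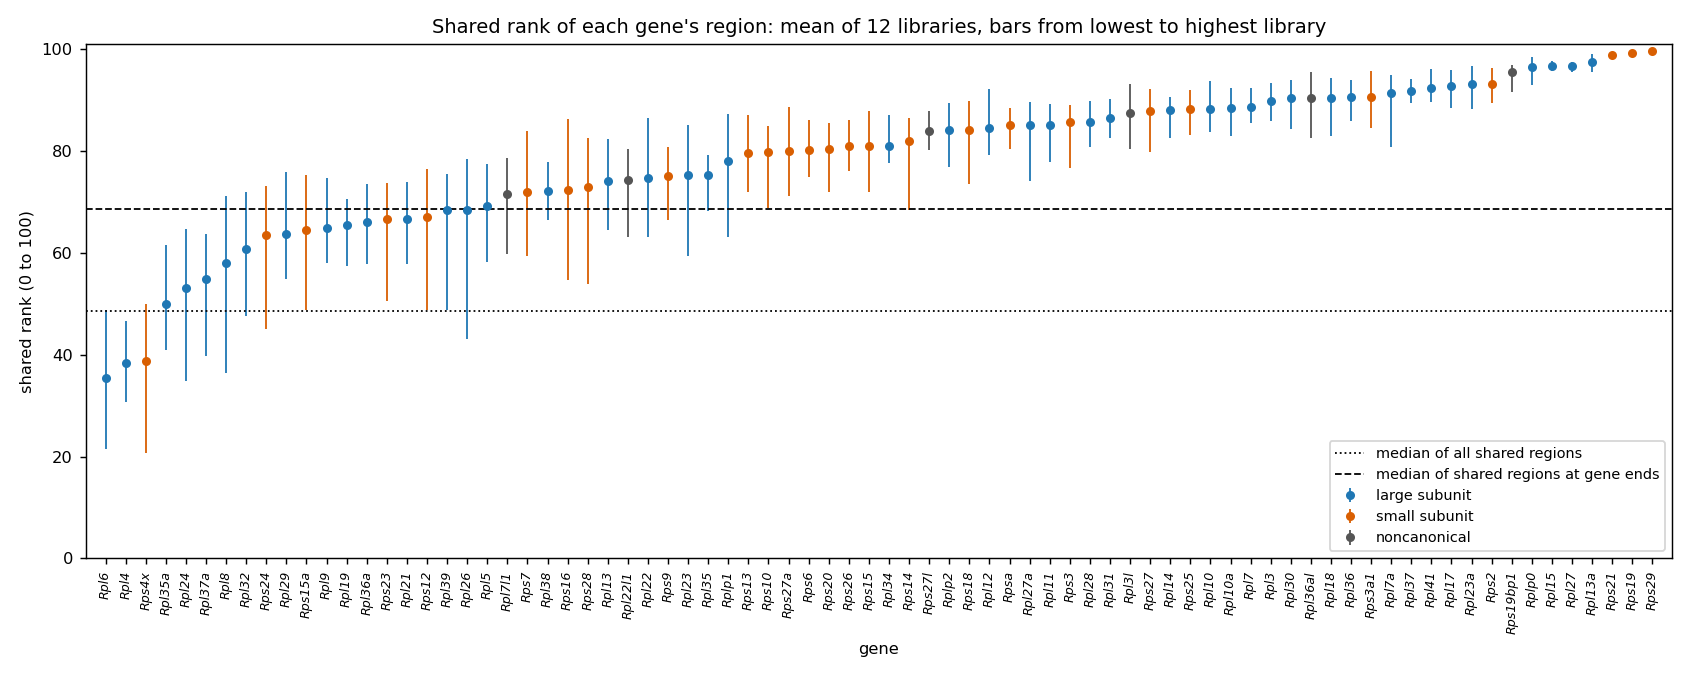
Shared rank (0 to 100) of the lead region of 78 genes with a region called in all 12 libraries, in ascending order. Points are means of 12 libraries, bars run from the lowest to the highest library, colours give the subunit, and the lines mark the medians of all shared regions (48.6, dotted) and of those at gene ends (68.6, dashed); Rpl6 is at the left and Rps29 at the right, where the bars are narrow because the scale ends at 100.

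The highest of all was Rps29, a small zinc-binding protein of the small subunit, at 99.5 ± 0.38 (SD, n = 12; chr12:69158028-69160080). Rps19, the gene most often mutated in Diamond-Blackfan anaemia, followed at 99.2 ± 0.37, and Rps21 at 98.9 ± 0.34 (SD, n = 12 each). Next came Rpl13a, whose product also has a role outside the ribosome in silencing inflammatory transcripts, at 97.4 ± 1.02, and Rpl27 at 96.8 ± 0.67 (SD, n = 12 each). The authors' fold enrichment over background at Rps29 ran from 121 to 261 over the 12 lists. The scale ends at 100, so genes near the top have a small SD by construction (median SD 1.59 at 90 or more and 7.46 under 75).

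The lowest was Rpl6, at 35.3 ± 9.28, ranging from 21.6 to 48.8 (n = 12). The start of Rpl4 stood at 38.4 ± 5.38, although a second region at the downstream end of Rpl4, also within 1 kb of Snapc5, stood at 73.6. The X-linked gene Rps4x had 38.7 ± 9.69 and Rpl35a 49.96 ± 6.55 (SD, n = 12 each). The order is continuous: in none of the 76 neighbouring pairs of canonical genes did the ranges over the 12 libraries separate. Rpl6, Rpl4 and Rps4x, at the low end, did not overlap with Rps29, Rps19 and Rps21 in any library.

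The promoters of the 3 highest and 3 lowest ranked of these genes that have an entry in the RefSeq promoter table (GRCm38.p6), and that of Rps7, whose rank moved most between the lines, are given from 150 bases before to 15 bases after the start. The capitals mark TTCCGG, the core bound by factors of the ETS family, and GGGCGG, the core bound by SP1, on either strand. Entries were used for 69 of the 89 genes. Rpl32, Rpl23a, Rpl29, Rps29, Rps20, Rpl3, Rpl8, Rps14, Rpl17, Rpl36, Rpl21, Rps27a, Rplp1, Rpl30 and Rpl7 were among those without one. The places are Rps19 (chr7:24884442-24884606, plus strand), Rps21 (chr2:180257229-180257393, plus strand), Rpl13a (chr7:45128731-45128895, minus strand), Rpl6 (chr5:121204351-121204515, plus strand), Rpl4 (chr9:64173237-64173401, plus strand), Rps4x (chrX:102189377-102189541, minus strand), Rps7 (chr12:28635939-28636103, minus strand).
Rps19: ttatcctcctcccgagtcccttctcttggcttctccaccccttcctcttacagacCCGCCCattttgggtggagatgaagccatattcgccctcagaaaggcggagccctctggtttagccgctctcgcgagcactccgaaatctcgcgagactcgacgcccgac
Rps21: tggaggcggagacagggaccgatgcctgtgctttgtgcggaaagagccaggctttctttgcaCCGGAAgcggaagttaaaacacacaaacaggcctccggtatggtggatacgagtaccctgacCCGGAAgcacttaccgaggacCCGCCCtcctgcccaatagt
Rpl13a: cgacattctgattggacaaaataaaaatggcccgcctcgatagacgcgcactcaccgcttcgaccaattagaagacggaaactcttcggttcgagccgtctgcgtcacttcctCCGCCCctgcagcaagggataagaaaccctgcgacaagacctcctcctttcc
Rpl6: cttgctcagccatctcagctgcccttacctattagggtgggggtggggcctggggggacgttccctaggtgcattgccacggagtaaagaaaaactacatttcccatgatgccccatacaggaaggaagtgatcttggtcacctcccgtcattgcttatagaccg
Rpl4: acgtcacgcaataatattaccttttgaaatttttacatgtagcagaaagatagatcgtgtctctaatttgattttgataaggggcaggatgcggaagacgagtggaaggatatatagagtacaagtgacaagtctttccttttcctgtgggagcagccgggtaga
Rps4x: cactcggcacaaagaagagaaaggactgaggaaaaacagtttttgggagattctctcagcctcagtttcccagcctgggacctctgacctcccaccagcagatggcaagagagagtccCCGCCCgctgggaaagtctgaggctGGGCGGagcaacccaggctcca
Rps7: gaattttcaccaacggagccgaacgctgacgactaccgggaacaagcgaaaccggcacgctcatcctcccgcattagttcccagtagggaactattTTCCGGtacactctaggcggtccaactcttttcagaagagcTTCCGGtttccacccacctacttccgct
In these windows Rps21 held 2 ETS and 1 SP1 match, Rps7 2 ETS matches, Rps19 and Rpl13a 1 SP1 match each and Rps4x 2 SP1 matches. No such letters stood in the printed windows of Rpl6 and Rpl4, although Rpl6 holds TTCCGG elsewhere in its 300-base promoter.

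Over the full 300-base promoters (250 bases before the start and 50 after), TTCCGG was held by 29 of 57 canonical genes (50.9%), beside 33.1% of the 8059 protein-coding genes with a peak at the start in all 12 lists and 19.1% of all 17492. Mitochondrial ribosomal protein genes stood at 56.5%. GGGCGG was held by 34 of the 57 (59.6%, against 69.5% and 46.3%). AAGATGGC, the YY1 core, was held by 5 (8.77%, against 5.50% and 3.21%), TATAAA by 6 (10.5%, against 6.04% and 13.3%), CACGTG, an E-box, by 5 (8.77%, against 11.1% and 7.91%) and the AP-1 site TGANTCA by 1, Rpl9 (1.75%, against 4.45% and 7.03%). The 29 start regions with TTCCGG had a median shared rank of 85.2 (quartiles 79.8 and 90.5), and the 27 without it 73.0 (64.7 and 82.8). With GGGCGG the medians were 85.4 for 34 and 70.5 for 22. Both strands were searched, and matches of different motifs may overlap. A match describes letters and not a bound site, and no match says only that these letters are not in the window.

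A run of at least 5 pyrimidines on the gene strand that reached within 5 bases of the start was held by 31 of the 57 canonical promoters (54.4%, against 32.3% of genes with a start peak in all 12 lists and 32.8% of all). A run of 8 or more was held by 19 (33.3%, against 9.38% and 9.56%), and by 7 of 69 mitochondrial ribosomal protein genes (10.1%). The 4 longest runs are shown in capitals, from 20 bases before to 20 bases after the start, to set them beside the tract named above. A run here need not begin at the tabulated start. The places are Rpl7a (chr2:26910787-26910826, plus strand), Rpl27a (chr7:109519175-109519214, plus strand), Rpl35 (chr2:39005112-39005151, minus strand), Rpl15 (chr14:18270967-18271006, minus strand).
Rpl7a: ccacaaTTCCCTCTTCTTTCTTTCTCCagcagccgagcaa
Rpl27a: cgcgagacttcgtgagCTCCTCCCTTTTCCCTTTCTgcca
Rpl35: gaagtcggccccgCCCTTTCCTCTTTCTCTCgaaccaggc
Rpl15: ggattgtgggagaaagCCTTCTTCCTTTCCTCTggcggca
The run was 21 bases long in Rpl7a, 20 in Rpl27a, 18 in Rpl35 and 17 in Rpl15. The tabulated start lay inside each of these runs.

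**Figure D2:**
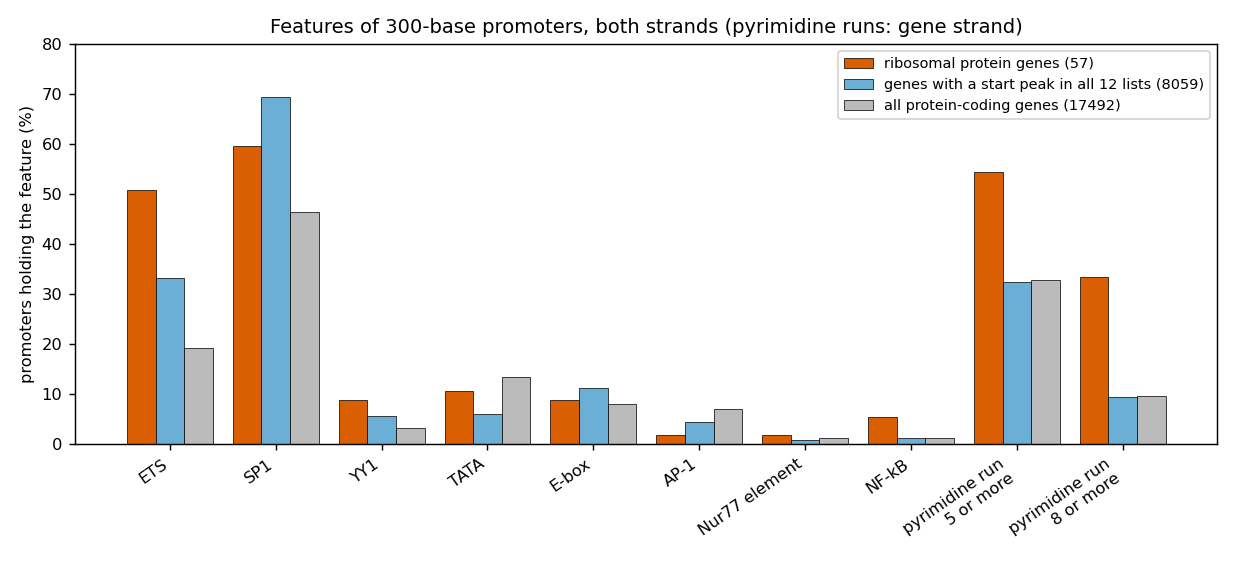
Share of 300-base promoters that hold each feature, in percent, for 57 canonical ribosomal protein genes, 8059 protein-coding genes with a start peak in all 12 lists and 17492 protein-coding genes. ETS letters were held by 50.9%, 33.1% and 19.1%, and pyrimidine runs of 8 or more by 33.3%, 9.38% and 9.56%.

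The first comparison asked how 1 h of LPS altered these regions. Of the 108 shared regions, 0 rose in rank and 10 fell (limma, adjusted p under 0.05, both lines together), where 13.3% and 13.4% of all 26378 shared regions rose and fell. Of the 108, 107 lay at gene ends, and of all shared regions at gene ends 4.54% rose and 13.3% fell. Among the 10 were the lead regions of Rpl6 and Rplp1 and second regions of Rps9, Rpl4, Rpl19, Rpl10a and Rps18. At an unadjusted p under 0.05, 0 of the 108 were higher and 21 lower, where 17.1% and 20.6% of all shared regions were, so the count of lower regions is near the background. The median difference was −1.61 rank points, beside −0.99 over all shared regions and −1.90 over the 10161 shared regions at gene ends. The 6 libraries with LPS all lay below the 6 without in 1 region, that at the downstream end of Rpl4, and above them in 0, where 4.2% and 6.31% of all shared regions did so.

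At the start of Rpl6, which encodes a large subunit protein, the shared rank was 35.2, 42.4 and 40.6 in the untreated GFP libraries and 26.6, 29.3 and 21.6 with LPS. In the Nur77 line it was 47.4, 48.8 and 43.5 untreated and 36.0, 23.7 and 29.2 with LPS. The LPS libraries lay below the untreated ones within each line without overlap. The difference was −15.3 ± 2.47 rank points (SE; limma, adjusted p = 0.00123). It was −7.65 when only gene-end regions were ranked (limma, adjusted p = 0.0271), and with peaks at the start alone it was −5.25 ± 1.74 and did not pass (SE; limma, adjusted p = 0.118).

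At the downstream end of Rps9, a small subunit gene (chr7:3705415-3707879), the rank was 79.9, 72.6 and 73.8 in untreated and 61.3, 51.9 and 58.0 in LPS-treated GFP libraries, and 61.1, 67.4 and 69.1 against 56.4, 61.0 and 52.7 in the Nur77 line. The treated libraries lay below the untreated ones within each line, narrowly so in the Nur77 line. The difference was −13.8 ± 2.44 (SE; limma, adjusted p = 0.00206). The start of Rps9 itself stood at 75.2 ± 4.44 (SD, n = 12) and did not pass (limma, adjusted p = 0.951).

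At the downstream end of Rpl4 (chr9:64178520-64181336) the rank was 81.3, 80.3 and 78.5 in untreated GFP libraries, 70.8, 64.9 and 73.4 in GFP with LPS, 78.7, 81.4 and 74.8 in untreated Nur77 libraries and 63.8, 73.2 and 62.7 in Nur77 with LPS. Every LPS library was below every untreated one. The difference was −11.002 ± 2.34 (SE; limma, adjusted p = 0.0060). The region also holds the start of Snapc5.

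A wide region at the downstream end of Rps18, a gene of the small subunit head, also holds the start of B3galt4 and reaches Wdr46 (chr17:33946741-33953759). Its rank was 83.7, 78.8 and 79.8 in untreated and 61.3, 60.6 and 68.2 in LPS-treated GFP libraries. In the Nur77 line it was 91.5, 93.7 and 88.7 untreated and 80.1, 81.4 and 69.3 with LPS. Both lines separated by treatment, and at each treatment the Nur77 libraries lay above the GFP ones. The LPS difference was −15.9 ± 2.47 (SE; limma, adjusted p = 0.000946). The start of Rps18 lay in another region, at 84.2 ± 5.35 (SD, n = 12).

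At the lead region of Rplp1, which encodes an acidic stalk protein, the rank was 85.7, 87.3 and 84.4 in untreated and 70.8, 63.2 and 78.8 in LPS-treated GFP libraries. The Nur77 libraries stood at 82.1, 76.8 and 78.8 untreated and at 75.1, 74.8 and 79.8 with LPS. The GFP groups separated and the Nur77 groups overlapped. The LPS difference was −8.76 ± 2.52 (SE; limma, adjusted p = 0.0264), and the interaction of LPS and line did not pass (limma, adjusted p = 0.518). The call was lost when only gene-end regions were ranked (limma, adjusted p = 0.0667), and without GFP untreated replicate 1 or 2, untreated Nur77 replicate 1 or Nur77 LPS replicate 1 or 2 (limma, adjusted p from 0.0506 to 0.0601).

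The second regions of Rpl19 and Rpl10a, 2 large subunit genes, were low in rank and less firm. At Rpl19 the mean rank was 23.1 and the LPS difference −13.3 (limma, adjusted p = 0.0264). At Rpl10a they were 15.8 and −19.6 (limma, adjusted p = 0.0418). The Rpl10a difference was −8.77 in the GFP line, where the groups overlapped. In the Nur77 line it was −30.4 without overlap, with the highest untreated library at 60.6. With gene-end regions only the differences were −5.76 at Rpl19 and −10.2 at Rpl10a, and both calls were lost (limma, adjusted p = 0.217 and 0.234). The Rpl10a call was also lost without GFP untreated replicate 1 or 2, GFP LPS replicate 2 or 3 or any of the Nur77 LPS replicates (limma, adjusted p from 0.0616 to 0.0860). The Rpl19 call was lost without GFP LPS replicate 1 or Nur77 LPS replicate 1 or 2 (limma, adjusted p from 0.0565 to 0.0613).

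**Figure D3:**
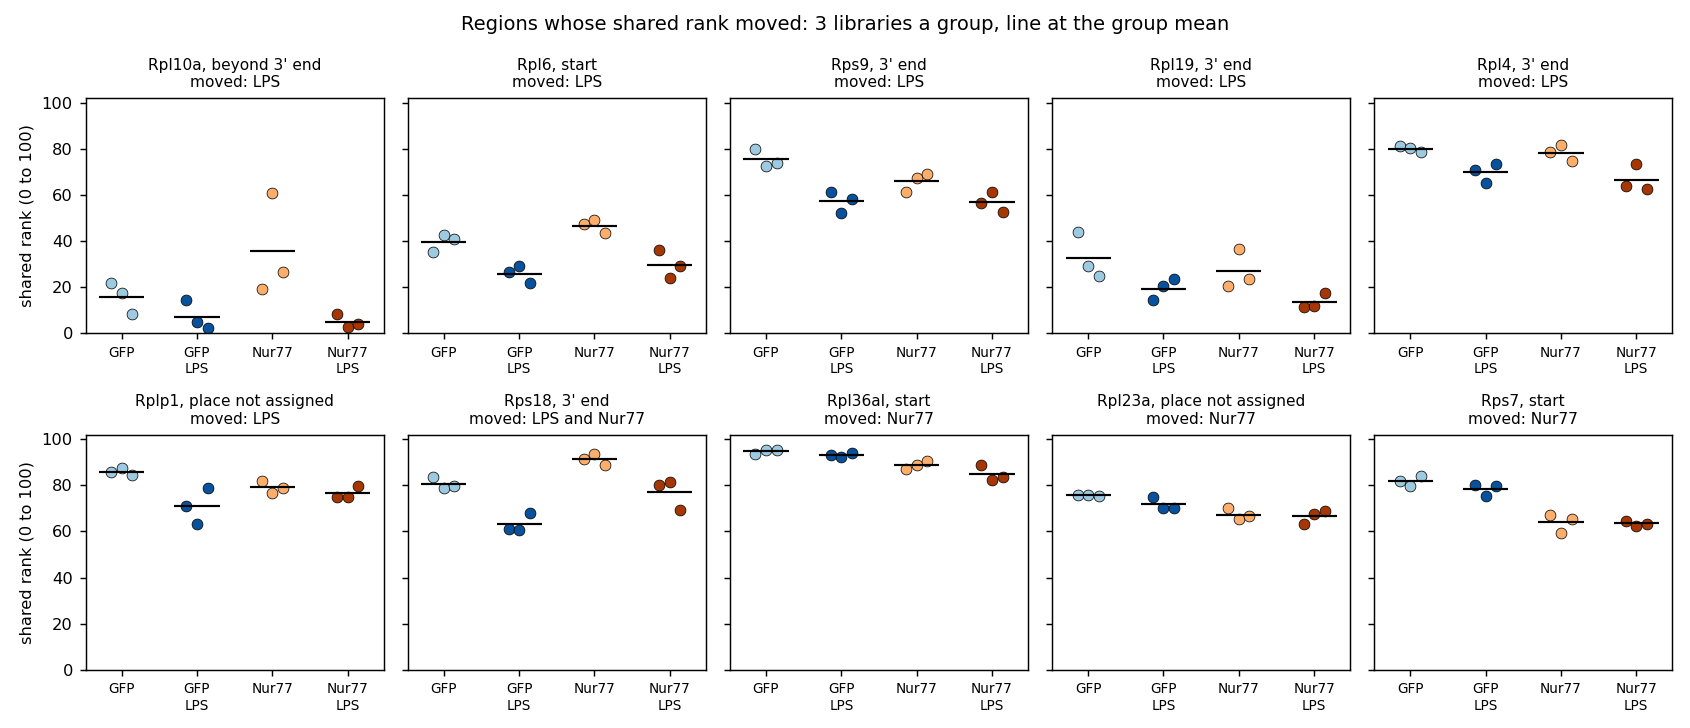
Shared rank (0 to 100) of 10 regions that moved with LPS or between the lines, 1 panel each, with the gene, the place of the region and the contrast in which it passed. Points are the 3 libraries of a group and the line is their mean; in the Rpl4 panel the highest LPS library is at 73.4 and the lowest untreated one at 74.8, and in the Rps7 panel the Nur77 libraries lie below the GFP ones.

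By place, starts and downstream ends were counted apart where the table gives the strand. Of 61 regions that hold the start of one of the 89 genes, 1 fell (1.64%), beside 12.9% of 7483 start regions of all protein-coding genes, and the median difference was −0.75, beside −1.87. Of 11 regions at or past the downstream end that hold no start, 3 fell, those of Rps9, Rpl19 and Rpl10a, and 10 of 11 differences were below 0 (median −7.70). Over the 844 such regions of all genes 16.4% fell, against 27.3% of the 11, the median was −1.70 and 60.8% were below 0. These 11 regions were low in rank (median 22.5, against 41.7 over all genes), and the part of rank in this difference was not tested. When only gene-end regions were ranked against each other, 4 of 107 fell (Rpl6, Rps9, Rpl4 and Rps18) and 0 rose (limma), where 4.91% and 5.68% of all 10161 gene-end regions did, so the share that fell is near the background. With peaks at the start alone, 0 of 61 rose and 0 fell (limma), where 3.39% and 2.59% of 8059 gene starts did. At an unadjusted p under 0.05, 2 of the 61 were higher and 1 lower.

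Within single lines the untreated and LPS libraries did not overlap in 29 of 108 regions that were lower and 0 that were higher in the GFP line (19.2% and 16.5% of all shared regions), and in 13 lower and 4 higher in the Nur77 line (16% and 14.1%). Gene-end regions as a whole moved in the same libraries: their median shared rank was 69.4 to 70.7 in untreated and 65.8 to 66.5 in LPS-treated GFP libraries, and 68.4 to 71.6 and 68.2 to 70.0 in the Nur77 line. The part of this shift in the counts was not tested. For the interaction, 0 of the 108 regions passed in either direction (limma), where 0.0152% and 0.0265% of all regions did. At an unadjusted p under 0.05, 5 were higher and 1 lower, where 4.34% and 4.55% of all shared regions were. The interaction difference was below 0 in 30 of the 108 regions (27.8%, median 2.48). Over all shared regions 48.1% were below 0 (median 0.23), and over those at gene ends 40.4% (median 0.98). This skew was not tested.

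The next comparison asked how the Nur77 line differed from the GFP line. Of the 108 regions, 1 was higher and 4 were lower in rank in the Nur77 line (limma, adjusted p under 0.05), where 7.18% and 9.49% of all shared regions were. Among shared regions at gene ends the shares were 6.26% and 4.69%. The Rps18 region was the higher one (12.1 ± 2.47, SE; limma, adjusted p = 0.00829). Among the lower ones were Rps7, Rpl36al and Rpl23a. The 6 Nur77 libraries lay below the 6 GFP libraries in 4 of the 108 regions, at Rps7, Rps29, Rpl36al and Rpl23a, and above them in 0 (3.56% and 1.66% of all shared regions). Of those 4, 3 were the only regions near these genes on chromosome 12.

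Rps7 encodes a small subunit protein that also binds the p53 regulator MDM2. Its start region (chr12:28635017-28637439) stood at 81.7, 79.8 and 84.0 in untreated and 80.2, 75.2 and 79.7 in LPS-treated GFP libraries. In the Nur77 line it stood at 67.2, 59.5 and 65.2 untreated and 64.7, 62.3 and 63.4 with LPS. No GFP library was under 75.2 and no Nur77 library over 67.2. The difference was −16.4 ± 1.78 (SE; limma, adjusted p = 0.000249).

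Rpl36al, a paralog of Rpl36a, shares its start region with Mgat2 (chr12:69183326-69185813). The rank was 93.4, 95.2 and 95.5 in untreated and 93.3, 92.3 and 94.2 in LPS-treated GFP libraries, and 87.2, 88.8 and 90.7 and then 88.8, 82.5 and 83.7 in the Nur77 line. Again the lines did not overlap, and the difference was −7.05 ± 1.51 (SE; limma, adjusted p = 0.0105). Rps29, at the top of the scale, was 99.8 to 99.9 in the GFP libraries and 98.8 to 99.5 in the Nur77 libraries, a difference of −0.64 ± 1.12 that did not pass (SE; limma, adjusted p = 0.768).

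Chromosome 12 as a whole was lower in the Nur77 line. Its 1054 shared regions had a median line difference of −10.6 (quartiles −17.3 and −5.72), 94.02% were below 0 and 613 passed as lower, while the medians of the other 20 chromosomes lay between 0.05 and 3.50. The Rps7 and Rpl36al differences lie inside those quartiles, and the part of the chromosome-wide shift in them was not tested. With gene-end regions only, the differences were −22.9 at Rps7 and −12.8 at Rpl36al. With peaks at the start alone, 0 of 61 starts were higher and 2 lower (limma), where 1.87% and 4.32% of all starts were, and these were Rps7 and Rpl36al, lower by 25.1 ± 1.99 and 15.7 ± 2.14 rank points (SE; limma, adjusted p = 0.000104 and 0.00155). The fourth gene on chromosome 12, the testis retrogene Rpl10l, had no region.

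**Figure D4:**
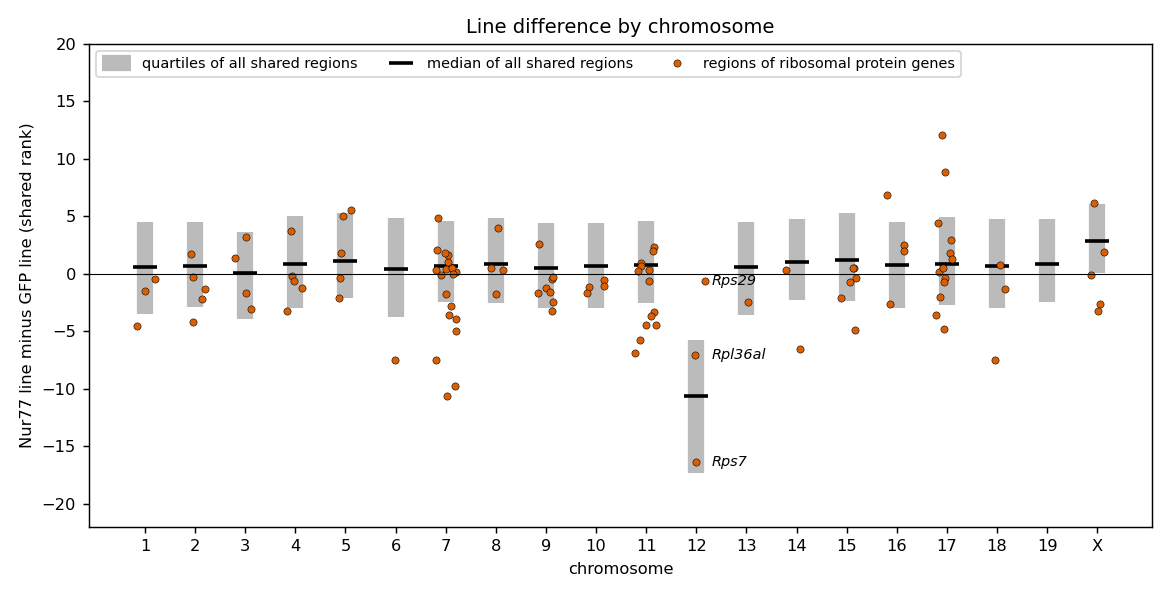
Difference in shared rank between the Nur77 and GFP lines, by chromosome. Grey bars are the quartiles and black lines the medians of all shared regions, and points are the 108 regions near ribosomal protein genes, spread sideways for clarity. Chromosome 12 has a median of −10.6, and its points are Rps29, Rpl36al and Rps7.

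Off chromosome 12, the region of Rpl23a that passed was not its lead (chr11:78182375-78185435). The start of Rpl23a was not in the promoter table, and its lead was chosen by rank. The lead reaches 1 end of the gene and this region covers the other, so which of them holds the start is not known here. This region stood at 75.6, 76.0 and 75.6 in untreated and 75.1, 70.3 and 70.4 in LPS-treated GFP libraries. In the Nur77 line it stood at 70.0, 65.4 and 66.5 untreated and 63.4, 67.6 and 68.7 with LPS. The lines did not overlap (−6.88 ± 1.62, SE; limma, adjusted p = 0.0166), but on normal scores of the ranks the call was lost (limma, adjusted p = 0.0801), and with gene-end regions only the difference was −10.4. At the 61 start regions the median line difference, averaged over both treatments, was −0.61 and 40 were below 0 (65.6%). Over all 7483 start regions the median was 1.01 and 34.8% were below 0. Of the 61, 2 passed as lower (3.28%, Rps7 and Rpl36al), against 4.02% of all.

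**Figure D5:**
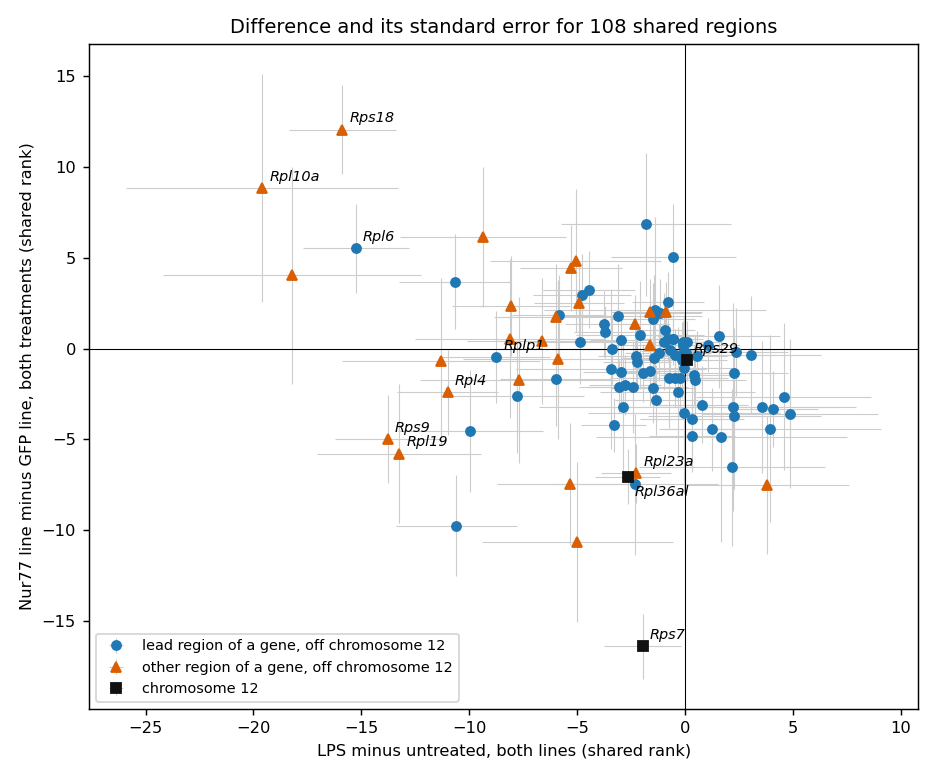
LPS difference (horizontal) against line difference (vertical) in shared rank points, with standard errors, for the 108 shared regions. Lead regions of genes off chromosome 12 gather near 0, with Rpl6 to the left, and second regions such as those of Rps18, Rpl10a and Rps9 lie further left.

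Letters of 2 factors that bear on the treatments were rare in the promoters. The Nur77 element AAAGGTCA was held by 1 of 57, Rpl35a (1.75%, against 0.77% of genes with a start peak in all 12 lists and 1.23% of all), and the NF-kB form GGANTTTCC by 3, Rpsa, Rps12 and Rps2 (5.26%, against 1.22% and 1.25%). They are shown with 8 bases on each side and the match in capitals, on the gene strand: Rpl35a (chr16:33056382-33056405, plus strand), Rpsa (chr9:120127518-120127542, plus strand), Rps12 (chr10:23787296-23787320, minus strand) and Rps2 (chr17:24719961-24719985, plus strand).
Rpl35a: tctgtctcTGACCTTTgctttctg
Rpsa: aaagctacGGACTTTCCacgctcgc
Rps12: gcggaagtGGAAACTCCtaaggcac
Rps2: tcggcgagGGAAAGTCCgcaggcgc
Rpl35a differed by −2.61 ± 3.11 between the lines, which did not pass (SE; limma, adjusted p = 0.644). With LPS, Rpsa, the laminin-binding small subunit protein gene, differed by −0.78 ± 1.67, Rps12 by −3.44 ± 4.41 and Rps2 by 1.08 ± 1.48 (SE), and none passed (limma, adjusted p = 0.790, 0.629 and 0.653).

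Few regions were called in every library of 1 group and none of the other. With LPS in the GFP line, 1 of 141 regions was gained (called in 3 of 3 and 0 of 3 libraries), inside Rps3, and 1 was lost, 750 bp past the downstream end of Rpl11, where 1.96% and 1.02% of all 76042 regions were. In the Nur77 line 0 were gained and 1 was lost (1.94% and 0.46% of all). Between the lines, 0 were gained and 2 lost in untreated Nur77 cells, inside Rps16 and at Rpl17 (0.308% and 3.4% of all), and 0 and 0 with LPS (0.304% and 2.18%). The smallest two-sided exact p for 3 libraries against 3 is 0.1, so these are counts without a test. None of the 5 regions was a lead region.

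The list percentile is a region's percentile by −log10 q among all regions of its own list. Where called, the Rps3 region stood at list percentiles 2.30, 14.2 and 54.0 in the GFP libraries with LPS, and was also called in 1 Nur77 library with LPS. The Rpl11 region stood at 18.3, 28.3 and 10.5 in untreated GFP libraries, and 2 untreated and 1 LPS-treated Nur77 libraries called it too. The number lost with LPS in the GFP line was 5 without GFP untreated replicate 3 or GFP LPS replicate 3 and 2 without GFP untreated replicate 1. It was 2 in the Nur77 line without untreated replicate 1 or 2 or LPS replicate 2. Lost in untreated Nur77 cells were 4 without GFP untreated replicate 3.

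Over all 33 regions called in only some libraries, the median list percentile was 15.8 and the median width 704 bp. Their calls filled 65 of 99 places in untreated GFP libraries (65.7%, against 57.8% over all 49664 regions called in 2 to 11 lists) and 34 in GFP with LPS (34.3%, against 55.8%). They filled 42 in untreated Nur77 libraries (42.4%, against 37.1%) and 36 in Nur77 with LPS (36.4%, against 42.9%). These shares were not tested. Across 6 against 6 libraries, 10 of these regions could be tested with Fisher's exact test. For LPS and for the line, 0 passed in either direction (0% of the 20292 regions tested passed in each of the 4 directions). The smallest p that this test can give here is 0.00216. Over all regions tested the lowest adjusted p was 0.0935 for LPS and 0.0923 for the line (Fisher's exact test). The test had little room to pass, so the 0 cannot show that these calls did not differ. At an unadjusted p under 0.05, 0 moved with LPS and 1 was called less often in the Nur77 line, where 5.56% of the regions tested were called more and 1.48% less often with LPS and 7.32% less often in the Nur77 line. That 1 region lay inside Rps16 (5 of 6 GFP and 0 of 6 Nur77 libraries, two-sided Fisher's exact p = 0.0152, adjusted p = 0.190).

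The 12 noncanonical genes differed in whether a region was found at all. The start regions of Rps27l, a p53-responsive paralog of Rps27, and of Rpl22l1, a paralog of Rpl22, stood at 83.9 and 74.2, and that of Rpl7l1, a relative of Rpl7, at 71.5. Rps19bp1, an activator of the deacetylase SIRT1, had 95.4 in a region of 11574 bp that reaches Atf4 and Mief1. Rpl3l, the striated muscle paralog of Rpl3, had no region at its start: its region called in all 12 libraries (87.4) lies at the downstream end beside Msrb1. Regions inside Rpl37rt and Rps23rg1 were called in 10 and 9 libraries, and Rps27rt, Rpl32l, Rpl10l and Rpl39l had none. Reads of retrogene copies may not be told apart from those of the parent gene. At such copies both a call and the lack of a region are therefore uncertain.

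Other genes of protein synthesis were counted in the same way. Of 78 mitochondrial ribosomal protein genes, 77 had a region in all 12 libraries, at a lead median of 60.9, and with LPS 4 of their 96 shared regions rose and 15 fell (limma). Of 30 ribosome biogenesis genes, all had one (lead median 77.7), and 2 of 44 regions rose and 8 fell. Of 22 genes of translation factors and other ribosome parts, all had one (87.8), and 0 of 32 rose and 3 fell. Of 16 genes of growth control, such as the mTOR pathway, all had one (83.4), and 2 of 39 rose and 8 fell. In the Nur77 line 3, 3, 1 and 1 regions of these lists were higher and 1, 1, 0 and 1 lower, in the same order. Over the 18733 shared regions of all protein-coding genes, 10.4% rose and 14.2% fell with LPS. In the Nur77 line 7.27% of them were higher and 7.32% lower, and the lead median over all protein-coding genes was 70.8. With LPS the shares of the 4 lists that fell were 15.6%, 18.2%, 9.38% and 20.5%, and those that rose 4.17%, 4.55%, 0% and 5.13%.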

How the data were processed

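The 12 ATAC-seq libraries were each deposited as 1 peak list. The peak names, per the file headers and names as deposited, record mapping quality 20, a q of 0.001, and that duplicates and mitochondrial reads had been removed. The submitters' processing notes name cutadapt 2.6, DiffBind 3.0.15 and mm10, and neither the aligner nor the peak caller is given in the sources used here. Each peak carries the authors' score, the authors' fold enrichment and the authors' −log10 p and −log10 q, and the summit's offset. Read totals were not used here, so counting error is unknown and peak number is the only measure of depth.

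For the autosomes 1 to 19 and for X and Y, peaks that overlapped by 1 bp were merged over lists, after rows with the same span were collapsed. Regions in at least 2 lists were used and joined to RefSeq genes (GRCm38.p6) within 1 kb. Each library's strongest −log10 q in a region gave its rank percentile among regions called in all 12. The limma fit used 4 group means over all 26378 regions, with Benjamini-Hochberg adjusted p under 0.05. Calls in 4 to 8 of 12 libraries were compared by two-sided Fisher's exact test. The scripts were tested on simulated data. The genes and lists were chosen with earlier results of these data known. Named were the 5 highest and 5 lowest canonical genes, all regions that passed or were gained or lost, genes on chromosome 12, the noncanonical genes and those without a region, and others were chosen after their values were seen. Some genes that this rule takes in are counted but not reported here by name, nor drawn by name. Alternatives were shorter lists, a stricter q, wider cover, 3 lists, 5 kb, fold enrichment, normal scores, gene ends only, chromosome 12 left out, a replicate block, each library left out and, chosen after seeing the data, gene starts only. The tools were limma 3.58.1 in R 4.3.3, and pandas 2.3.3, scipy 1.17.1, numpy 2.4.6 and matplotlib 3.10.9 in Python 3.11.15.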

Additional observations from a re-analysis of the deposited data

How the results depend on the processing

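No region that passed changed the sign of its difference under the alternatives checked region by region. Gene starts only was not among these, and the direction of differences over regions that did not pass was not checked. Over the comparisons, 198 values under an alternative stayed near the reported one (counts within 1.5 times) and 30 moved. The 198 include values ranked by fold enrichment and counts that were 0 in both settings, so they are not all separate checks. Regions gained and lost with LPS in the GFP line (1 and 1) were 0 gained with lists trimmed to 36184 peaks, 0 and 2 with −log10 q of at least 5, 3 lost with peaks covering 25% of the region, and 2 and 10 within 5 kb. In the Nur77 line (0 and 1), 2 were lost with trimmed lists, 3 with −log10 q of at least 5, and 1 gained and 3 lost within 5 kb. Between untreated lines (0 and 2), 1 was gained and 1 lost with trimmed lists and 5 were lost within 5 kb. With LPS (0 and 0), 1 was lost within 5 kb. Leaving out each library gave 1 to 5 lost and 1 gained with LPS in the GFP line, 0 to 1 gained and 1 to 2 lost in the Nur77 line, 2 to 4 lost between untreated lines and 0 to 2 lost between LPS-treated lines. The gain was without Nur77 LPS replicate 2, and the 2 lost between treated lines were without GFP LPS replicate 1. Ranks lower with LPS (10) numbered 4 with gene-end regions only, 0 with gene starts only (a setting chosen after seeing the data) and 7 to 12 with a library left out. Ranks lower in the Nur77 line (4) numbered 2 with chromosome 12 left out, 2 with gene starts only and 3 to 5 with a library left out, and the 1 higher was 0 with gene starts only. The median rank of 78.8 was 64.5 with gene-end regions only and 78.6 to 80.5 with a library left out. Ranks by fold enrichment were identical to those by −log10 q (largest difference 0), so that setting is no separate check. With a replicate block, 8 were lower with LPS, and 1 higher and 3 lower in the Nur77 line, and the LPS call at Rpl10a was lost (limma, adjusted p = 0.0505). Same-numbered libraries of different groups correlated at −0.18 to 0.16 and others at −0.16 to 0.24. Of 12 libraries, 5 correlated best with their own number. With 3 libraries a group, these values cannot tell whether same-numbered libraries were prepared together. The causes of these changes were not tested, apart from fewer regions or libraries by construction. Ranks are relative within a library, and with 3 libraries a group small differences cannot be told from replicate spread.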
